A study of Rattus norvegicus with 24 samples.

Results

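Toll-like receptors and their closest cofactors were followed in messenger RNA libraries of the rat brain 3 months after traumatic brain injury (TBI). The family was taken by name as 10 genes, the receptors Tlr1, Tlr2, Tlr3, Tlr4, Tlr6, Tlr7 and Tlr9, the cofactors Cd14 and Ly96, and the adaptor Myd88. Of the 10 genes, 9 matched a locus among the 26641 named loci of the table, each by exactly 1 locus, whereas Tlr1 matched no locus name and was not analysed here. The animals were adult male Sprague-Dawley rats. In 6 TBI rats a lateral fluid-percussion impact was applied to the exposed dura through a craniectomy on the left side, and 6 sham-operated controls had the same anaesthesia and surgery without the impact, so both groups carried a craniectomy. The perilesional cortex and the ipsilateral thalamus were dissected from every rat, which gave 4 groups of 6 libraries (24 in all). The study used magnetic resonance imaging to identify TBI rats with chronic inflammation around the lesion, so the TBI group stands for such rats and not for injured rats in general. The methods describe this imaging, done under isoflurane, for TBI rats only.

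Toll-like receptors are sensors of the innate immune system that bind molecules of microbes and molecules released by damaged cells. Tlr2, Tlr4 and Tlr6 sit at the cell surface, where Tlr2 pairs with Tlr1 or Tlr6 to bind lipoproteins, and where Tlr4 binds lipopolysaccharide with the help of Cd14, which hands over the ligand, and Ly96 (also called MD-2), which holds it. Tlr3, Tlr7 and Tlr9 sit in endosomes and bind double-stranded RNA, single-stranded RNA and DNA rich in unmethylated CpG, respectively. Apart from Tlr3, which signals through the adaptor TRIF, these receptors signal through the adaptor MyD88 to kinases that activate NF-kappaB and interferon regulatory factors. In the brain, microglia are the main cells known to express most of these genes, and astrocytes, endothelium and neurons are known to express some of them.

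Promoter sequences are shown as a description of the genes, and whether the genes share a regulator was not tested. In RefSeq promoters of the rat assembly GRCr8, from 250 bases before to 50 bases after each annotated start, 9 of the 10 genes had an entry, and Ly96 was not among them. The motif GAGGAA, the core recognised by PU.1 and other ETS factors, was searched on both strands and occurred in 6 of the 9 promoters (Cd14, Tlr3, Tlr4, Tlr6, Tlr7 and Tlr9), against 27.6% of all 33469 promoters of that length. A loose NF-kappaB motif, GGG and CC with any 5 bases between them, occurred in 3 of 9 (Cd14, Tlr2 and Tlr3) against 47.3% of all promoters. TGANTCA, the AP-1 motif, occurred in 2 of 9 (Myd88 and Tlr9) against 7.33%. The core of the interferon response element, GAAA repeated after any 2 bases, occurred in 1 of 9 (Myd88) against 3.92%. The 160 bases that end just before the annotated start are given for Tlr7 and Tlr9, which had the largest changes among the receptors of the family in the thalamus, for Tlr4, the partner of Ly96 and Cd14, and for Tlr2, which had no GAGGAA in its promoter. Capitals mark motif matches, where TTCCTC is GAGGAA read on the other strand and overlapping matches are merged. The windows lie at chrX:30644266-30644425 (plus strand) for Tlr7, chr8:115743247-115743406 (plus strand) for Tlr9, chr5:85161087-85161246 (plus strand) for Tlr4 and chr2:171504558-171504717 (minus strand) for Tlr2.
Tlr7: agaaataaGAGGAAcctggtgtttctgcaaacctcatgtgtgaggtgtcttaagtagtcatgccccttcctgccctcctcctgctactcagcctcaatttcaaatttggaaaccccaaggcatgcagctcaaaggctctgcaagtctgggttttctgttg
Tlr9: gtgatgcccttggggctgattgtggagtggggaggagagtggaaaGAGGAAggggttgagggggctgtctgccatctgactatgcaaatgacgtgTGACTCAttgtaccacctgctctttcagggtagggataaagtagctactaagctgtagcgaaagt
Tlr4: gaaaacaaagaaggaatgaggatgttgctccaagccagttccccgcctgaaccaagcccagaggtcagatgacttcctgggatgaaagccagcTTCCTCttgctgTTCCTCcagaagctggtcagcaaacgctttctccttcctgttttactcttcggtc
Tlr2: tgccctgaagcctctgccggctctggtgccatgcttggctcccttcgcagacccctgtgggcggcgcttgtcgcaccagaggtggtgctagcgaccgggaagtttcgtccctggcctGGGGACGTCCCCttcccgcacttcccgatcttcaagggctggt
The Tlr4 window held GAGGAA at 2 places, both on the minus strand relative to the gene. These matches describe the letters only, and binding was not measured.

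The values below are normalized counts, that is, fragments assigned to a locus divided by a size factor of the library. Recovered depth was 30568927 to 54608922 fragments per library, and a family member had between 19 and 837 fragments in a library, with the lowest numbers in Tlr9 (19 to 89). The table holds no transcript lengths, so levels are compared between groups and not between genes. The positions of the loci are those listed with the table, for which the sources name both RGSC3.4 and Rnor_5.0. Choroid plexus markers were very high in single libraries (a summed normalized count of 262216 in the thalamus of TBI rat 45 and 107876 in that of sham rat 50, against group medians of 1503 and 1251), and their part in the results was not tested. The highest sums of these markers in the cortex were 32899 in TBI rat 45 and 23899 in sham rat 26. Some results are therefore given with and without rat 45. Sham rats 26 and 50 were left out only as single libraries.

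Most of the receptors and cofactors and the adaptor were higher in TBI rats compared with sham-operated controls in the cortex, and all 9 measured genes were higher in the thalamus. In the perilesional cortex 7 of the 9 genes passed the test as higher (Tlr2, Tlr3, Tlr4, Tlr6, Tlr7, Cd14 and Myd88) and none as lower, where 14.3% of all loci tested were called higher and 14.9% lower. In the ipsilateral thalamus all 9 passed as higher, against 14.5% of loci called higher and 20.9% lower. A call is an adjusted p under 0.05 in limma, fitted on log2(normalized count + 1) over all named loci with a mean of at least 10 and adjusted by Benjamini-Hochberg. The median log2 fold change of the 9 genes was 0.46 in the cortex and 0.92 in the thalamus, beside -0.0096 and -0.023 over all loci tested. In the cortex the 6 TBI values lay above all 6 sham values for 4 genes (Tlr6, Tlr7, Cd14 and Myd88), against 7.02% of loci. In the thalamus they did so for 7 genes, all but Tlr3 and Cd14, against 7.46% of loci. Tissue RNA was measured in bulk, so more cells of a type and more RNA per cell cannot be told apart.

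**Figure D1:**
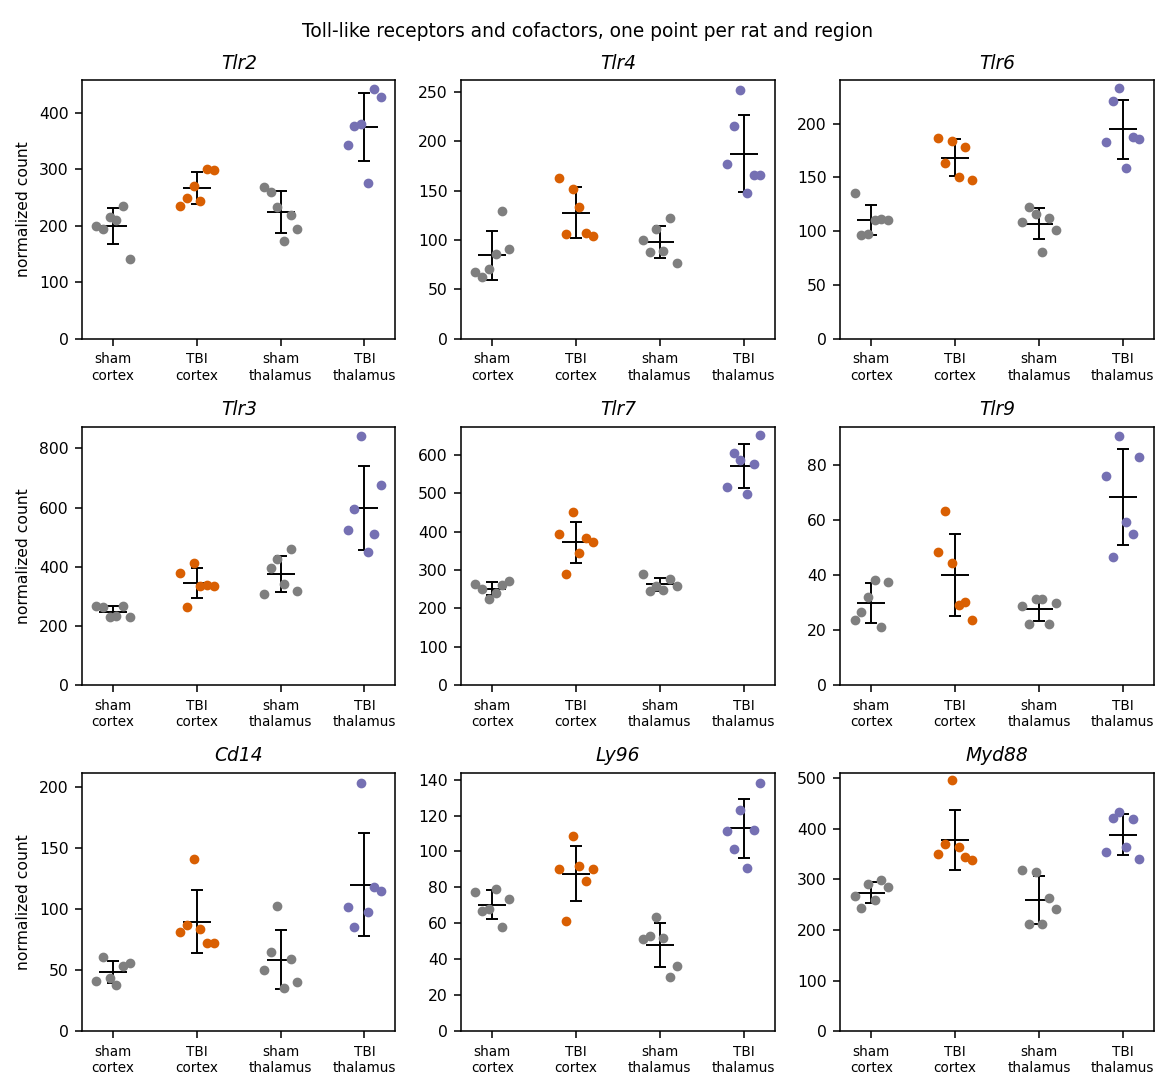
Normalized counts (vertical axes, each from 0) of the 9 measured genes in the 4 groups; each point is a library of 1 rat (6 per group), the long bar is the group mean and the whiskers are the standard deviation. TBI thalamus (right in each panel) had the highest mean for every gene.

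Among the surface receptors, Tlr2 (XLOC_022186, chr2:202253256-202258683) had normalized counts from 141 to 236 (median 205) in the sham cortex and from 235 to 301 (median 259.8) in the TBI cortex. It was higher after TBI by a log2 fold change of 0.43 (SE 0.12, limma adjusted p = 0.0121), with 5 of 6 TBI rats above every sham rat. In the thalamus Tlr2 ranged from 173 to 269 (median 226) in sham rats and from 276 to 442 (median 378) in TBI rats. The groups did not overlap there, and the log2 fold change was 0.73 (SE 0.13, limma adjusted p = 0.000670).

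Tlr4 (XLOC_030113, chr5:86690665-86704298), the lipopolysaccharide receptor, ranged from 62.6 to 129.6 (median 78.3) in the sham cortex and from 104 to 163 (median 120) in the TBI cortex. The ranges overlapped, with 3 of 6 TBI rats above every sham rat, and the log2 fold change was 0.61 (SE 0.18, limma adjusted p = 0.0180). In the thalamus Tlr4 ranged from 77.2 to 122 (median 94.7) in sham rats and from 147 to 252 (median 171) in TBI rats. All TBI rats were above all sham rats there (log2 fold change 0.92, SE 0.15, limma adjusted p = 0.000299).

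Tlr6 (XLOC_012381, chr14:44848508-44861843), the partner of Tlr2 for diacylated lipoproteins, ranged from 96.9 to 136 (median 110) in the sham cortex and from 148 to 187 (median 171) in the TBI cortex. These groups did not overlap, and Tlr6 had the smallest adjusted p of the family in the cortex (log2 fold change 0.61, SE 0.10, limma adjusted p = 0.000685). In the thalamus the range was 80.9 to 122 (median 111) in sham rats and 159 to 233 (median 187) in TBI rats, again without overlap (log2 fold change 0.86, SE 0.12, limma adjusted p = 0.000126). Tlr1 and Tlr6 are close relatives in sequence and neighbours in the genome. Since Tlr1 had no locus of its own name, Tlr6 is reported as uncertain with regard to shared reads. Between Tlr6 and the next named receptor, Tlr10, lay 3 low loci without a name, which were not assigned to a gene.

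Of the cofactors of Tlr4, Cd14 (XLOC_018351, chr18:29265352-29266946) showed the largest change of the family in the cortex. It ranged from 38.3 to 60.9 (median 48.5) in the sham cortex and from 72.1 to 141 (median 82.6) in the TBI cortex, where the value of rat 45 stood far above the other 5, which ended at 87.3. All TBI rats were above all sham rats (log2 fold change 0.85, SE 0.17, limma adjusted p = 0.00240). In the thalamus Cd14 ranged from 35.3 to 103 (median 54.7) in sham rats and from 85.6 to 203 (median 108) in TBI rats, the highest again rat 45. Here 3 of 6 TBI rats were above every sham rat, since sham rat 34 reached 103 (log2 fold change 1.05, SE 0.25, limma adjusted p = 0.00515). Without rat 45 the log2 fold change was 0.71 in the cortex and 0.88 in the thalamus (limma adjusted p = 0.00325 and 0.00866). Rat 45 also had the highest summed level of markers of perivascular and other brain macrophages among TBI rats in both regions (1533 in the cortex and 2725 in the thalamus, beside medians of 1107 and 1126), and their part in its Cd14 level was not tested.

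Ly96 (XLOC_030900, chr5:1967361-1984825), the lipopolysaccharide-binding partner of Tlr4, gave another picture. In the cortex it ranged from 58.1 to 79.0 (median 70.8) in sham rats and from 61.5 to 109 (median 90.5) in TBI rats. The difference did not pass the test (log2 fold change 0.30, SE 0.14, limma adjusted p = 0.110), although 5 of 6 TBI rats were above every sham rat. The lowest TBI value, 61.5, was that of rat 24, and without this library the log2 fold change was 0.40 (limma adjusted p = 0.0238). The highest, 109, was that of rat 45, without which it was 0.23 (limma adjusted p = 0.224). In the thalamus Ly96 ranged from 30.5 to 63.9 (median 51.7) in sham rats and from 91.1 to 138 (median 112) in TBI rats. The groups stood well apart there (log2 fold change 1.25, SE 0.18, limma adjusted p = 0.000115).

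Among the endosomal receptors, Tlr3 (XLOC_015335, chr16:49739708-49754145), the sensor of double-stranded RNA, ranged from 229 to 268 (median 248) in the sham cortex and from 263 to 413 (median 337) in the TBI cortex. It was higher after TBI (log2 fold change 0.46, SE 0.099, limma adjusted p = 0.00340), with 5 of 6 TBI rats above every sham rat. In the thalamus Tlr3 ranged from 308 to 460.2 (median 368) in sham rats and from 449 to 843 (median 561) in TBI rats. The ranges met at a single TBI rat (log2 fold change 0.66, SE 0.15, limma adjusted p = 0.00295).

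Tlr7 (XLOC_040973, chrX:28883040-28909103), the sensor of single-stranded RNA, had narrow sham groups in both regions. In the cortex it ranged from 225 to 272 (median 255) in sham rats and from 289 to 451 (median 378) in TBI rats, without overlap (log2 fold change 0.55, SE 0.096, limma adjusted p = 0.000745). In the thalamus it ranged from 246 to 289 (median 258) in sham rats and from 499 to 653 (median 582) in TBI rats. The lowest TBI value there was far above the highest sham value, and Tlr7 had the smallest adjusted p of the family (log2 fold change 1.12, SE 0.079, limma adjusted p = 2.78e-07).

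Tlr9 (XLOC_037565, chr8:114279019-114283069), the sensor of CpG DNA, had the fewest fragments and the widest relative spread in the TBI cortex (coefficient of variation 37.2%). In the cortex it ranged from 21.2 to 38.3 (median 29.3) in sham rats and from 23.8 to 63.2 (median 37.3) in TBI rats. The ranges overlapped and the difference did not pass the test (log2 fold change 0.36, SE 0.24, limma adjusted p = 0.275). In the thalamus Tlr9 ranged from 22.1 to 31.3 (median 29.2) in sham rats and from 46.5 to 90.4 (median 67.6) in TBI rats. All TBI rats were above all sham rats there, with the largest log2 fold change of the family (1.26, SE 0.19, limma adjusted p = 0.000165).

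Myd88 (XLOC_038883, chr8:127229272-127233342), the adaptor shared by these receptors except Tlr3, ranged from 244 to 298 (median 276) in the sham cortex and from 338 to 496 (median 357) in the TBI cortex. The groups did not overlap (log2 fold change 0.45, SE 0.095, limma adjusted p = 0.00280). The highest value was that of rat 45, and without rat 45 the log2 fold change in the cortex was 0.37 (limma adjusted p = 0.00283). In the thalamus Myd88 ranged from 212 to 318 (median 252) in sham rats and from 340.2 to 433 (median 392) in TBI rats. The TBI rats were all higher, by the smallest log2 fold change of the family in that region (0.59, SE 0.12, limma adjusted p = 0.00143).

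**Figure D2:**
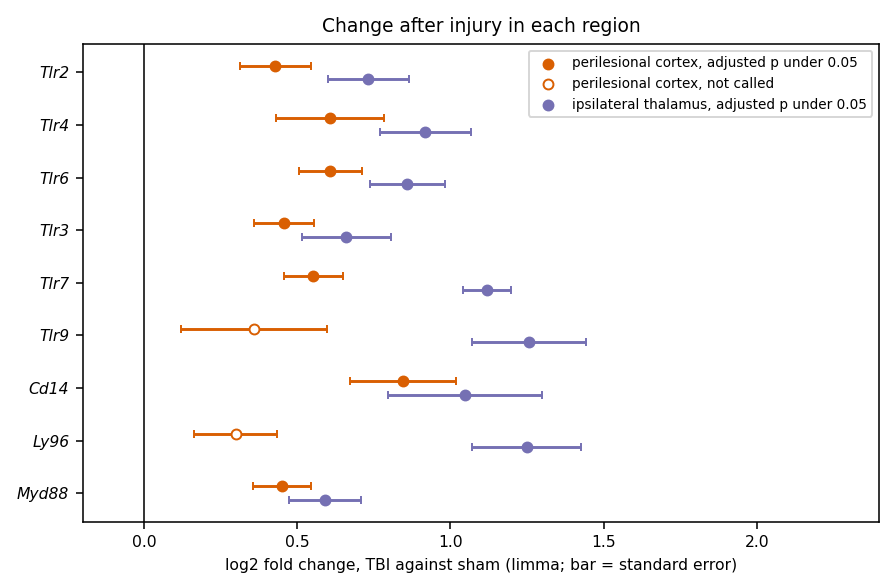
Log2 fold change of TBI against sham-operated rats (horizontal axis) for each gene in the perilesional cortex (orange) and ipsilateral thalamus (violet), 6 against 6 rats; bars are the standard error of the limma fit and open points did not pass the test. Ly96, Tlr7 and Tlr9 show the widest distance between the regions.

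The question of whether injury changed the family differently in the 2 regions was answered by the interaction term of a limma fit over the 24 libraries. The TBI effect was larger in the thalamus for Ly96, by 0.95 on the log2 scale (SE 0.22, limma adjusted p = 0.00992), and for Tlr7, by 0.57 (SE 0.12, limma adjusted p = 0.00583). Thus 2 of 9 genes passed, where 2.72% of all loci were called in that direction. For Tlr9 the difference was 0.90 with a wide error (SE 0.31, limma adjusted p = 0.0752). It passed (1.04, limma adjusted p = 0.0331) when the cortex library of TBI rat 24 was left out, which held the highest cortical Tlr9 value of 63.2. For the other 6 genes the difference was between 0.14 and 0.31 and did not pass. With the rat as a block, adjusted p was 0.00711 for Ly96, 0.00904 for Tlr7 and 0.0747 for Tlr9 in limma, so no call changed.

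The order of the groups showed the same contrast from another side. TBI thalamus had the highest mean for all 9 genes, and for 8 of them TBI cortex came next; for Tlr3 the sham thalamus came before the TBI cortex. In sham rats, the thalamus differed from the cortex for 2 of 9 genes, where 62.2% of all loci differed. Tlr3 was higher in the sham thalamus (log2 difference 0.58, SE 0.10, limma adjusted p = 0.000145) in 6 of 6 rats, and Ly96 was lower (log2 difference -0.58, SE 0.17, limma adjusted p = 0.00800) in 6 of 6 rats. For the other 7 genes the difference between the sham groups did not pass the test and was within 0.24 on the log2 scale. In TBI rats, 6 of 9 genes were higher in the thalamus (Tlr2, Tlr3, Tlr4, Tlr7, Tlr9 and Ly96), against 31.0% of loci.

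Among TBI rats, the thalamus exceeded the cortex with the smallest adjusted p of the family for Tlr7 (log2 difference 0.63, SE 0.10, limma adjusted p = 0.000102) and Tlr3 (0.78, SE 0.14, limma adjusted p = 0.000304). These were the 2 of 9 genes whose TBI thalamus values all lay above the TBI cortex values. That count lay near the share of all loci, 19.5%. Tlr7 was higher in the thalamus of 6 of 6 TBI rats, by 1.30 to 2.09 times, while in sham rats the ratio of thalamus to cortex lay between 0.949 and 1.15. Ly96 turned its order. It was lower in the thalamus of every sham rat, with a median ratio to the cortex of 0.661, and higher in the thalamus of 5 of 6 TBI rats, with a median ratio of 1.29. The latter difference (log2 difference 0.37, SE 0.14, limma adjusted p = 0.0392) lay close to the threshold and was lost when any of 8 libraries was left out, with adjusted p between 0.0505 and 0.0906. Tlr9 was higher in the thalamus of 5 of 6 TBI rats, with a median ratio of 1.92 (log2 difference 0.80, SE 0.24, limma adjusted p = 0.0110). For Tlr6, Cd14 and Myd88 (log2 differences 0.20, 0.40 and 0.05) the test was not passed in the fit without the block. With the rat as a block the Cd14 difference of 0.40 passed (limma adjusted p = 0.0200, against 0.118 without the block), and it also passed without rat 45 (0.37, limma adjusted p = 0.0216).

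**Figure D3:**
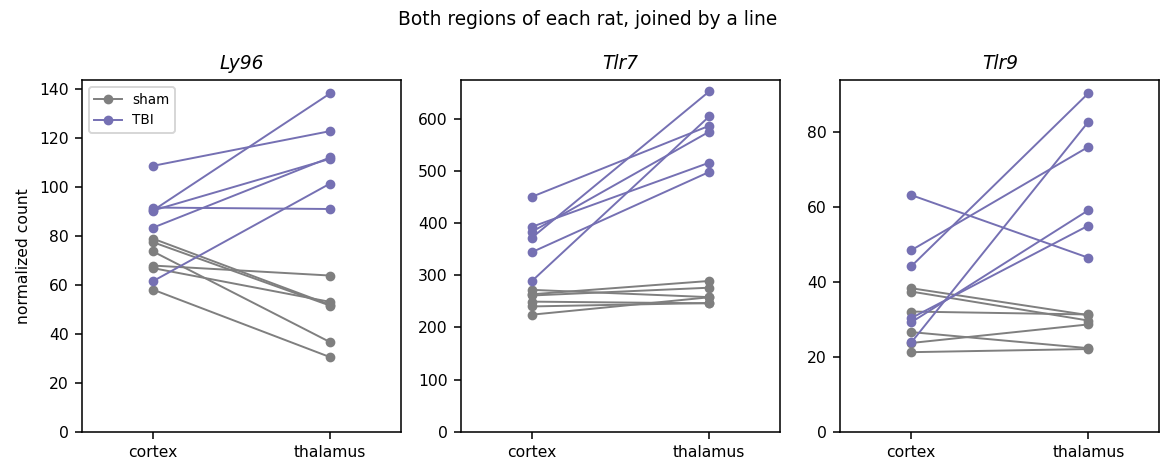
Normalized counts of Ly96, Tlr7 and Tlr9 (vertical axes from 0) in the cortex and thalamus of each rat, joined by a line (grey, 6 sham rats; violet, 6 TBI rats). Ly96 falls towards the thalamus in 6 of 6 sham rats and rises in 5 of 6 TBI rats, and Tlr7 rises in 6 of 6 TBI rats.

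Microglial markers moved with the family. Of 14 markers, 13 were tested, and 11 were higher after TBI in the cortex (median log2 fold change 0.53) and 13 in the thalamus (median 0.90). Of all loci tested, 14.3% were called higher in the cortex and 14.5% in the thalamus. The TBI effect was larger in the thalamus for 7 of the 13 markers (median difference 0.41), against 2.72% of all loci. The markers were higher in the thalamus than in the cortex for 7 of 13 in sham rats and 12 of 13 in TBI rats. Among all loci tested, 5278 of 15582 were higher in the thalamus in sham rats and 31.0% in TBI rats. The part of the microglial markers in the differences of the family between the regions was not tested. Their summed normalized count ranged from 18440 to 19551 in the sham cortex, 25272 to 28032 in the TBI cortex, 19984 to 25558 in the sham thalamus and 38337 to 48739 in the TBI thalamus. Siglech was at or under the floor of 3 fragments in every group. Of 7 markers of perivascular and other brain macrophages, 6 were tested in the cortex, with 3 higher, and 5 in the thalamus, with none past the test. Of 9 monocyte and neutrophil markers, 2 of 4 tested were higher in the cortex and 1 of 5 in the thalamus, with Elane at or under the floor in every group. B cell markers, relevant to Tlr9, summed to low levels (group medians of 9.82 in the sham cortex, 15.8 in the TBI cortex, 4.58 in the sham thalamus and 12.3 in the TBI thalamus), and none of the 4 passed the filter. Of 6 T cell markers, 3 were tested in the cortex and none in the thalamus, and none passed the test.

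Astrocyte markers were higher for 5 of 9 in each region, and lower for 2 in the cortex. Endothelial markers were higher for 2 of 7 in the cortex and 4 of 7 in the thalamus, whereas oligodendrocyte markers were higher for 2 and 1 of 8. Of all loci tested, 14.3% were called higher in the cortex and 14.5% in the thalamus. The 1 of 8 oligodendrocyte markers in the thalamus lay near that share. Neuronal markers were lower for 8 of 11 in the cortex and 10 of 11 in the thalamus, against 14.9% and 20.9% of all loci called lower. None of the 7 choroid plexus markers passed the test in either region.

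Each gene was then set against the microglial signal of its own library, as log2(normalized count + 1) minus the mean of the 13 tested microglial markers on the same scale. None of 18 values (9 genes in 2 regions) differed between TBI and sham rats after Benjamini-Hochberg adjustment over the 18 two-sided exact permutation tests, and 3 had an unadjusted p under 0.05. All 18 differences lay within 0.39 of 0. The smallest p was that of Tlr7 in the thalamus, which was higher after TBI by 0.25 relative to the markers (exact permutation p = 0.00649, adjusted p = 0.117), with 5 of 6 TBI rats above every sham rat. Ly96 was higher by 0.38 in the thalamus (exact permutation p = 0.0238, adjusted p = 0.214), and Myd88 was lower there (-0.28, exact permutation p = 0.0455, adjusted p = 0.273). Tlr9 in the thalamus had the widest difference (0.39, exact permutation p = 0.0844, adjusted p = 0.304), and Cd14 in the cortex differed by 0.37 (exact permutation p = 0.0714, adjusted p = 0.304), or by 0.245 without rat 45. With 6 against 6 rats the smallest p the test can give is 0.00216.

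**Figure D4:**
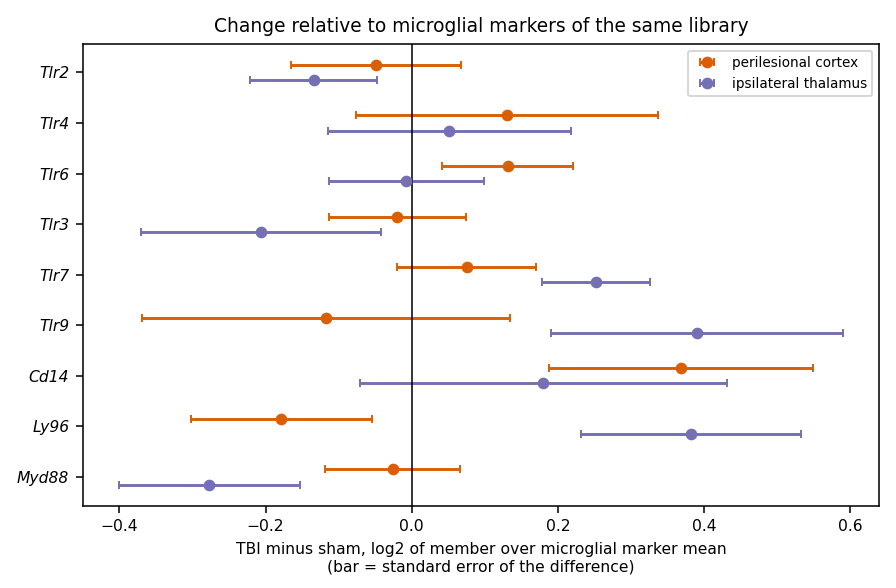
Difference between TBI and sham-operated rats (horizontal axis, log2) in each gene relative to the mean of 13 microglial markers of the same library, for the perilesional cortex (orange) and ipsilateral thalamus (violet); bars are the standard error of the difference, 6 against 6 rats. The values scatter on both sides of 0, from -0.28 to 0.39.

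Other genes of the pathway were taken from lists by role. Where a gene is named for a single region, its value in the other region is not given, and no difference between the regions is meant. For the counts in each list, 14.3% of all loci tested were called higher and 14.9% lower in the cortex. In the thalamus these shares were 14.5% and 20.9%, and 2.72% of loci had a larger TBI effect in the thalamus. Among the receptors outside the family above, Tlr8, an endosomal RNA sensor next to Tlr7 on the X chromosome, was higher after TBI in the cortex (53.3 ± 18.2 against 20.9 ± 4.36, SD, n = 6; log2 fold change 1.26, limma adjusted p = 0.000893) and in the thalamus (32.4 ± 22.5 against 11.0 ± 6.20; 1.42, limma adjusted p = 0.0124). Tlr12 in the cortex did not pass (0.55, limma adjusted p = 0.272). Tlr5, Tlr10 and Tlr11 were under the filter in both comparisons, with Tlr5, the flagellin receptor, at a mean of 3.39 in the sham cortex, 8.97 in the TBI cortex, 3.57 in the sham thalamus and 12.9 in the TBI thalamus.

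Of the ligand-binding cofactors and receptor relatives, 3 of 5 tested were higher in the cortex and 2 of 5 in the thalamus. Their median log2 fold change was 0.50 in the cortex and 0.53 in the thalamus. Ly86 (MD-1), the counterpart of Ly96 that binds Cd180, was higher by 0.69 in the cortex and 0.98 in the thalamus (limma adjusted p = 0.00113 and 0.000131). Cd180, a receptor relative without a signalling domain, was higher in the thalamus by 0.89 (limma adjusted p = 0.000434), with a value of 0.20 in the cortex (limma adjusted p = 0.286). Lbp, the carrier that brings lipopolysaccharide to Cd14, was higher in the cortex by 1.32 (limma adjusted p = 0.0159) with a wide spread among TBI rats (90.2 ± 87.8 against 29.4 ± 9.93, SD, n = 6), and had a value of 0.53 in the thalamus (limma adjusted p = 0.375). Rftn1, a raft protein, was higher in the cortex by 0.50 (limma adjusted p = 0.0148) and stood at 0.03 in the thalamus (limma adjusted p = 0.874). Cd36, a scavenger receptor, passed in neither region (0.40 and 0.42, limma adjusted p = 0.117 and 0.617). Bpi was at 0 in every library.

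Of 10 genes for chaperones, trafficking and endosomal support, 6 were higher in the cortex and 5 in the thalamus, and none was lower. Their median log2 fold change was 0.24 in the cortex and 0.37 in the thalamus. Unc93b1, the chaperone that brings the endosomal receptors to endosomes, was higher by 0.82 in the cortex and 1.06 in the thalamus (limma adjusted p = 8.34e-05 and 2.73e-06). Pld4, an endosomal nuclease, was higher by 0.72 and 1.09 (limma adjusted p = 1.25e-05 and 2.23e-07). Ctss, a cathepsin, was higher by 0.45 and 0.98 (limma adjusted p = 0.000460 and 9.60e-06). In the interaction fit, 3 of the 10 had a larger TBI effect in the thalamus, namely Ctss (0.53), Pld4 (0.37) and Lgmn (0.31), named here after their values were seen.

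In the MyD88 arm, 3 of 11 tested genes were higher and 1 lower in the cortex, and 5 were higher and 1 lower in the thalamus. The median log2 fold change of the 11 was 0.059 in the cortex and 0.12 in the thalamus. Btk, a kinase downstream of the receptors, was higher by 0.76 and 1.23 (limma adjusted p = 0.000293 and 0.000143), and Irak4, the kinase recruited by MyD88, by 0.60 and 0.69 (limma adjusted p = 0.000322 and 3.31e-05). Pik3ap1 (BCAP) was higher in the thalamus by 0.73 (limma adjusted p = 0.00476), and Tab3 was lower in the cortex (-0.22, limma adjusted p = 0.0476). In the TRIF arm with the interferon regulatory factors, 6 of 9 were higher and 1 lower in the cortex, and 5 higher and 1 lower in the thalamus. Here the median log2 fold change was 0.33 in the cortex and 0.35 in the thalamus. Ticam1, the gene of TRIF itself, had no locus of its name and is not among the 9. Irf8, a factor of the myeloid lineage, rose by 0.88 and 1.47 (limma adjusted p = 0.000181 and 4.22e-07), and Ticam2 (TRAM), which links Tlr4 to TRIF, by 0.51 and 0.67 (limma adjusted p = 0.00420 and 0.00111). Irf7 was higher in the cortex by 0.49 (limma adjusted p = 0.0393) and Irf5 in the thalamus by 0.73 (limma adjusted p = 1.05e-06).

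At the NF-kappaB and MAP kinase step, 5 of 12 genes were higher and none lower in the cortex, and 8 were higher and 1 lower in the thalamus. The median log2 fold change of the 12 was 0.17 in the cortex and 0.27 in the thalamus. Nfkb2 was higher by 0.65 and 0.83 (limma adjusted p = 0.000443 and 0.000180) and Relb by 0.46 and 0.65 (limma adjusted p = 0.00986 and 0.00517). Rela was higher in the cortex by 0.39 (limma adjusted p = 0.00142), and Map3k8, the kinase Tpl2, in the thalamus by 0.78 (limma adjusted p = 0.000493). Among negative regulators, 6 of 14 were higher and 1 lower in the cortex, and 6 were higher and 3 lower in the thalamus. Their median log2 fold change was 0.060 in the cortex and 0.32 in the thalamus. The 3 of 14 lower in the thalamus lay near the share of all loci called lower there (20.9%). Nrros, which binds receptors in the endoplasmic reticulum, was higher by 0.65 and 1.03 (limma adjusted p = 0.000431 and 1.55e-06) and Il1rl1 (ST2) by 0.52 and 0.87 (limma adjusted p = 0.0210 and 0.000182). Irak3, the kinase-dead relative of Irak4, was higher in the cortex by 0.45 (limma adjusted p = 0.0149). Inpp5d (SHIP1), a lipid phosphatase, was higher in the thalamus by 0.98 (limma adjusted p = 3.45e-06) and had a value of -0.10 in the cortex (limma adjusted p = 0.191). Its TBI effect differed between the regions by 1.08 (limma adjusted p = 7.78e-07), named after the value was seen. The genes counted as lower in these 4 lists, also named after their values were seen, were Tab3, Traf3 and Tollip in the cortex and Ube2n, Tbk1, Map2k6, Tollip, Sarm1 and Cyld in the thalamus, with log2 fold changes between -0.31 and -0.17.

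**Figure D5:**
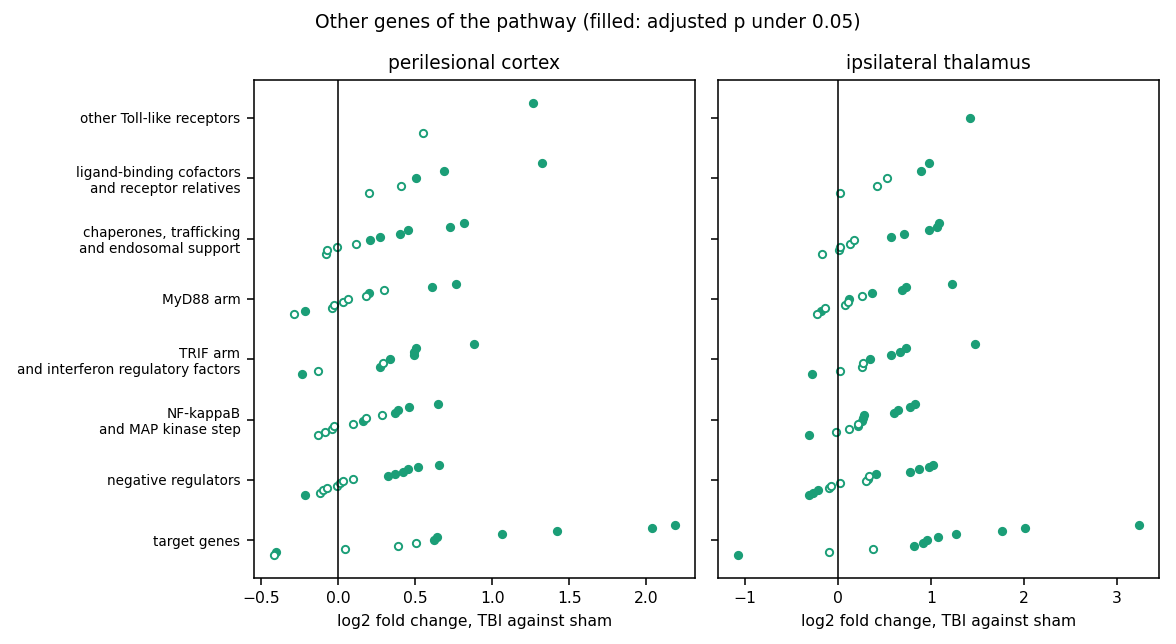
Log2 fold change of TBI against sham-operated rats (horizontal axes) for the tested genes of 8 pathway lists in the perilesional cortex (left) and ipsilateral thalamus (right); each point is a gene, filled where the limma adjusted p was under 0.05. Most filled points lie to the right of 0 in both regions. Ccl3, at 3.24 in the thalamus, passed the filter on low values through the TBI group.

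Of 19 target genes of the pathway, 11 were abundant enough to test, and 6 were higher and 1 lower in the cortex, 8 higher and 1 lower in the thalamus. The chemokine genes Ccl3 and Ccl2 passed the filter on low values through the TBI group, since their sham means were under 10 normalized counts, so that their place among the tested genes follows from their being high after TBI. Ccl3 was higher by 2.04 in the cortex and 3.24 in the thalamus (limma adjusted p = 0.000101 and 0.000121), and Ccl2 by 1.42 and 2.01 (limma adjusted p = 0.00650 and 0.00200). Cxcl10, an interferon-induced chemokine, was higher in the cortex by 2.18 (limma adjusted p = 0.000178), and Cd86, a costimulatory protein, in the thalamus by 1.77 (limma adjusted p = 9.68e-07). Tnf was the gene that was lower in the thalamus (9.65 ± 5.18 against 19.4 ± 4.66, SD, n = 6; -1.06, limma adjusted p = 0.0275), with a value of -0.42 in the cortex (limma adjusted p = 0.639). In the thalamus Tnf passed the filter through the sham group, since its TBI mean was under 10 normalized counts. Its place among the tested genes there follows from its being high in sham rats. Ptgs2 was lower in the cortex (-0.41, limma adjusted p = 0.00906). Nos2 and Ifnb1 were at 0 in every library.

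Within groups, the members of the family varied together only in part. After subtracting the mean of each of the 4 groups, the 36 pairs of family genes had a median Pearson r of 0.28 over the 24 libraries, from -0.31 (Tlr2 with Tlr9) to 0.61 (Tlr3 with Cd14). Rat 45 held the highest TBI value of both Tlr3 and Cd14 in each region, and r without that rat is not given for the pairs. The 24 points share rats and library preparation, and the correlations are descriptions. With the mean of the 14 microglial markers, Siglech included, r was 0.68 for Tlr2, the highest, and -0.04 for Tlr9, the lowest. Among 13752 named loci with a mean of at least 50, those most like each gene by the same measure were NEK6 (0.77) and Dguok (0.76) for Tlr2, Slfn5 (0.88) and Ets1 (0.86) for Tlr3, Smpdl3a (0.89) and Btg3 (0.83) for Tlr4, and Lgmn (0.81) and Gusb (0.80) for Tlr6. For Tlr7 they were Cd53 (0.86) and Lamp2 (0.78), and for Tlr9 Zfp516 (0.81) and Sh3bp4 (0.79). For Cd14 they were Pgm5 (0.90) and Parp3 (0.90), with 0.84 and 0.87 without rat 45. For Ly96 they were Ankrd32 (0.75) and Efcab7 (0.73), and for Myd88 Ifi27l2b (0.81) and Pcdh18 (0.79).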

How the data were processed

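Messenger RNA of both regions was measured in 6 TBI rats and 6 sham-operated controls (24 libraries). Per the study's methods and the submitters' processing notes, the authors made stranded poly(A) libraries, aligned reads with TopHat2 2.0.11 and Bowtie2 2.2.2, and assembled and quantified loci with Cufflinks 2.2.1; the positions are given on Rnor_5.0 in the notes and the methods also name RGSC3.4. The deposited table holds 1 signal value per locus and library, the number of assigned fragments after scaling by the size factor of that library. The low values of all 24 libraries were whole multiples of 1 step (100% within 0.1 of a whole number), which gave depths of 30568927 to 54608922 fragments and the floor of 3 fragments, which covers counting error only. Loci without a name (37.1% of 42334) were left out.

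Groups came from the labels. For each region, limma 3.58.1 (R 4.3.3, mean trend) compared TBI with sham rats on log2(value + 1) for named loci with a mean of at least 10, with Benjamini-Hochberg adjustment at 0.05. The interaction used all 24 libraries. The limma step was tested on simulated data. Members relative to microglial markers were tested by exact permutation (scipy 1.17.1). edgeR 4.0.16 (quasi-likelihood) on the recovered fragments, added after seeing the data, called 4435 (cortex) and 5122 (thalamus) loci, against 4531 and 5516 in limma. The rat number in the titles pairs the cortex and thalamus libraries of a rat; the deviations of the 2 libraries from their group means correlated with r from 0.00393 to 0.569 (median 0.187), against a median of -0.0138 between rats. TBI and sham rats are different animals, so no block applied within a region.

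The members and lists were chosen with earlier results of these data known. Genes named beyond the members are the 3 largest called changes per list and region, lists with 6 or fewer tested genes in full, the 2 most alike loci per member, and markers at 0; others are marked as named after their values were seen. Alternatives were other scalings (TMM, upper quartile), filters, pseudocounts (0.1 and 5), the rat block, leaving out each library or rat 45, and edgeR.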

Additional observations from a re-analysis of the deposited data

Results flagged for a closer look

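In 36 groups of 6 rats (9 genes in 4 groups) the highest and lowest values were compared with the rest by Dixon's test, which chance passes in about 1 in 20 groups. The values that stood apart all belonged to rat 45: Cd14 at 141 in the TBI cortex and 203 in the TBI thalamus, and Myd88 at 496 in the TBI cortex. The effect of TBI differed between the regions for Tlr7 (larger in the thalamus by 0.57 on the log2 scale, limma adjusted p = 0.00583) and for Ly96 (by 0.95, limma adjusted p = 0.00992).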

How the results depend on the processing

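The number of family genes higher after TBI was 7 in the cortex under every other scaling, filter, pseudocount and fit, and 7 to 8 when 1 library was left out. It was 9 in the thalamus, also with 1 library left out, and 8 at a minimum mean of 50, which Tlr9 does not reach. The number with a different TBI effect between regions was 2, and 2 to 3 with 1 library left out. Between thalamus and cortex 2 genes differed in sham rats (2 to 3 with 1 library left out) and 6 in TBI rats (5 to 7). With the rat as a block (pairing the 2 regions), 7 differed in TBI rats, where Cd14 passed at 0.40 (adjusted p = 0.0200), and the block changed no other call. Ly96 in TBI rats lost its call under TMM (0.35), no filter (0.37) and edgeR (0.33), with adjusted p of 0.0524, 0.0618 and 0.0575; Cd14 gained it without rat 45 (0.37). Tlr4 in sham rats passed without the cortex library of rat 50 (0.37, adjusted p = 0.0411). The causes were not tested.

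Relative to the microglial markers no gene passed under any alternative. Values near 0 changed sign in the cortex for Tlr3 (0.0118) and Myd88 (0.00565) with the median of the markers, and for Tlr2 (0.0329), Tlr3 (0.0620) and Myd88 (0.0559) without the complement genes, and in the thalamus for Tlr4 (-0.0430) without rat 45. With 1 library left out they ran from -0.133 to 0.0139 for Tlr2, -0.0613 to 0.0489 for Tlr3, -0.270 to 0.00404 for Tlr9 and -0.0934 to 0.0103 for Myd88 in the cortex, and from -0.0430 to 0.132 for Tlr4 and -0.0651 to 0.0464 for Tlr6 in the thalamus; the sham difference between regions of Tlr6 ran from -0.0875 to 0.0300. Upper quartile scaling moved the share of higher among all called loci from 49.1% to 69.9% in the cortex and from 41.0% to 60.0% in the thalamus, and edgeR to 55.1% in the thalamus and from 37.5% to 51.9% in the interaction. Tlr9, with as few as 19 fragments in a library, is the gene most limited by depth.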
